A study of Rattus norvegicus with 6 samples.

Results

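The tumour necrosis factor (TNF) family of rat liver tissue is described here as 43 genes, chosen by gene symbol and by a minimum of 10 counts summed over all libraries, of 32623 genes in the table. Of 46 genes with a matching symbol, 3 ligand genes did not reach that minimum. Tnf itself had 5 counts in all 6 libraries, Cd70 had 3 and Tnfsf11, which encodes the RANK ligand, had 0. The 43 members are 14 ligands, 22 receptors and 7 TRAF adaptors.

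TNF family ligands are mostly membrane proteins that form trimers and bind receptors on neighbouring cells. Receptors with a death domain (Fas, Tnfrsf1a) can start caspase cascades, and most other receptors recruit TRAF adaptors that lead to NF-kB and stress kinases. In liver, Fas and the TNF receptors are known for their part in hepatocyte death and regeneration, while costimulatory pairs such as Cd40 with its ligand act between lymphocytes and antigen-presenting cells.

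The series holds 6 bulk RNA sequencing libraries of rat liver. In 3 of them (GZM) the tissue had been embolized with ZnS (zinc sulfide) microspheres, and in the other 3 (GM), the control, with blank microspheres. All 6 therefore share embolization, a blockage of the feeding vessels. The study's title concerns hepatocellular carcinoma. Strain, age, time after embolization and the makeup of each piece (tumour, liver or both) are not stated in the sources used. The labels number the samples as replicate biosamples and do not name separate animals, so the p-values speak only to the spread of these samples, which may be technical. Whether a lower level reflects fewer cells of a type or less RNA per cell cannot be told apart in bulk tissue.

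Total counts ran from 13443115 to 16604067 per library. The hepatocyte markers fit the label liver in all 6 libraries, with none of 10 at 0, but their summed level was 43790 to 54100 scaled FPKM in GZM and 5737 to 20830 in GM. Scaled FPKM here means counts divided by exon length in kilobases and by the TMM-scaled library size, on the scale of deposited FPKM. TMM (trimmed mean of M-values) is a scaling that sets the bulk of genes level. Its factors were 0.715 to 0.793 in GZM and 1.17 to 1.43 in GM. With library totals in place of TMM, the median log2 fold change of all genes tested was -0.92, against -0.09 with TMM. Directions are therefore given relative to the TMM scale, and those that do not hold with library totals are named.

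With all 6 libraries, 15 members changed between GZM and GM. In edgeR's quasi-likelihood test with a Benjamini-Hochberg adjusted p under 0.05 over all genes, 10 members were lower in GZM and 5 were higher, of 36 that passed the low-count filter. Among all 14298 genes tested, 21.7% were lower and 22.2% were higher (44.0% in either direction), against 27.8% and 13.9% of the tested members. The share of members that changed in either direction was thus not above that of all genes. The members' median log2 fold change was -0.36, beside -0.09 for all genes. With library totals the split was 22 lower and 0 higher, and among all genes 8513 lower and 1315 higher. Leaving out GZM 2 left 5 members lower, and leaving out GZM 3 left 6.

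The lower members were the ligands Tnfsf8, Tnfsf14, Tnfsf18 and Tnfsf9, the receptors Tnfrsf14, Tnfrsf26, Tnfrsf21 and Cd40, and the adaptors Traf5 and Traf7. The higher members were the ligand Ltb, the receptors Fas, Tnfrsf1a and Ltbr, and the adaptor Traf4. All 10 lower members were also lower with library totals, while none of the 5 higher members was called there. Of the 15, 9 kept their call when any 1 library was left out: Tnfsf8, Tnfsf14, Tnfsf18, Tnfrsf21 and Tnfrsf26 among those lower, and Fas, Tnfrsf1a, Ltbr and Traf4 among those higher. Of the tested members, 13 (36.1%) had every GZM library below every GM library and 8 (22.2%) had the opposite order. Among all genes tested 29.7% and 28.4% did so, which is 58.1% in either direction.

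**Figure D1:**
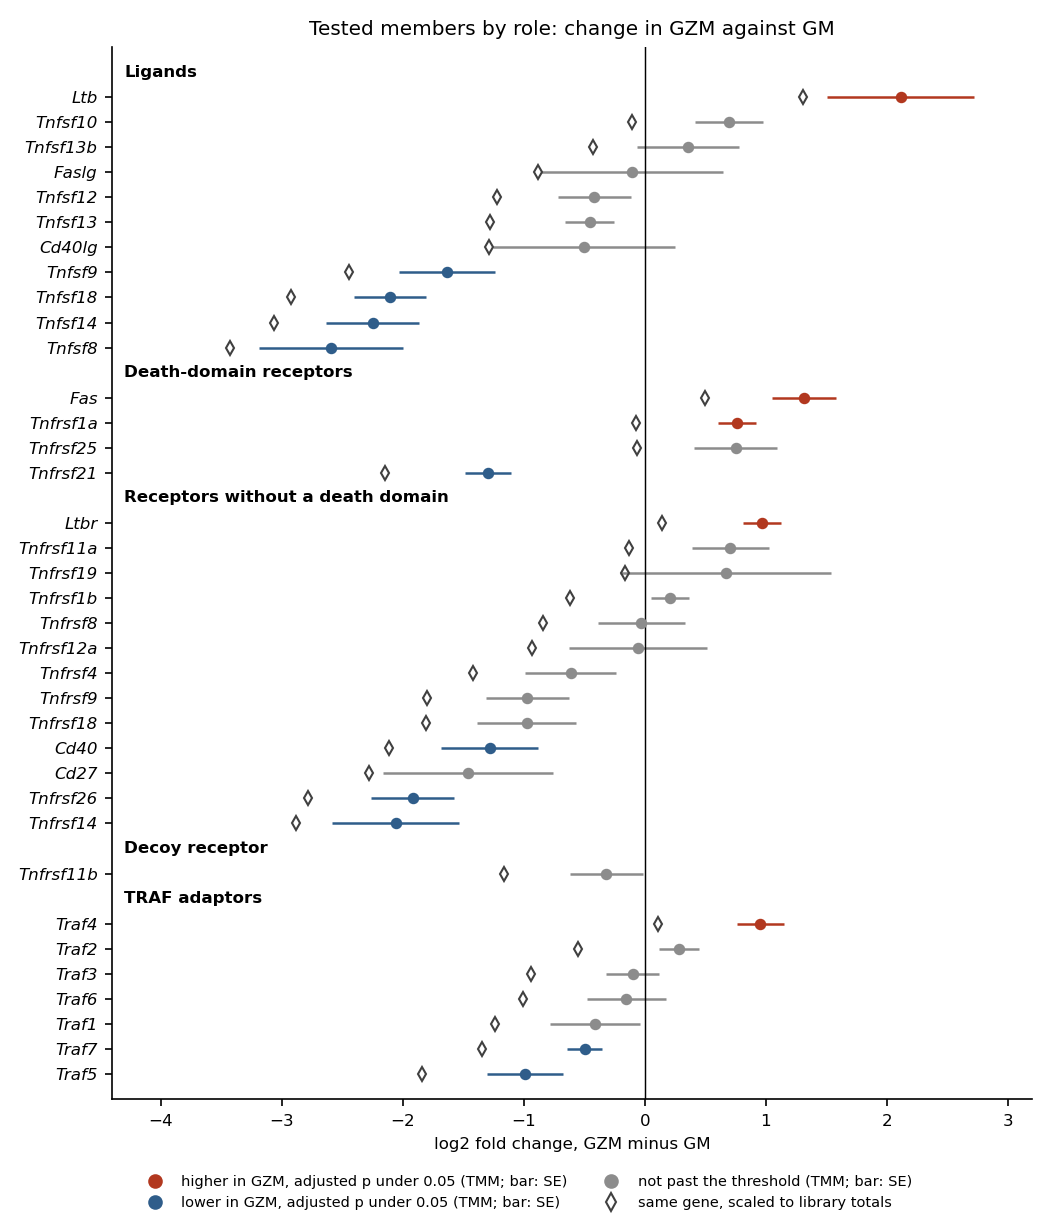
Log2 fold change of the 36 tested members (x axis, GZM minus GM) by role, with bars of 1 SE on the TMM scale and open diamonds for the same gene scaled to library totals. Red members were higher in GZM, blue ones lower and grey ones did not pass; every diamond lies to the left of its circle, and those of Tnfrsf1a and Tnfsf10 lie below 0.

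Promoters of 33 of the 43 members were matched in RefSeq's table for build GRCr8, from 250 bases before to 50 after the annotated start. They were searched on both strands for the kappa-B consensus, which NF-kB binds, for the gamma-activated site TTCNNNGAA and for the interferon element core (GAAA, any 2 bases, GAAA), with overlapping matches counted once per promoter. A kappa-B match was in 7 of the 33 (21.2%), beside 7.60% of 27457 promoters of the same length. The activated site was in 3 (9.09%, beside 8.68%) and the interferon core in 4 (12.1%, beside 3.77%). The members that passed and held a kappa-B match were Ltb and Fas, higher on the TMM scale, and Tnfsf14 and Traf7, lower. Matches thus occurred in members of either direction. A match is a description of letters in this window, not of binding. The promoters of these members are printed to show where the matches lie, 5′ to 3′ on the gene's strand, with each match to any of the 3 motifs in capitals. In Ltb the kappa-B match begins 25 bases before the start and the other capitals are an activated site, and in Fas the capitals near the end are an interferon core on the opposite strand. The windows are chr20:3634005-3634304 (minus strand) for Ltb, chr1:241211905-241212204 (plus) for Fas, chr9:2160037-2160336 (minus) for Tnfsf14 and chr10:14056645-14056944 (minus) for Traf7.
Ltb: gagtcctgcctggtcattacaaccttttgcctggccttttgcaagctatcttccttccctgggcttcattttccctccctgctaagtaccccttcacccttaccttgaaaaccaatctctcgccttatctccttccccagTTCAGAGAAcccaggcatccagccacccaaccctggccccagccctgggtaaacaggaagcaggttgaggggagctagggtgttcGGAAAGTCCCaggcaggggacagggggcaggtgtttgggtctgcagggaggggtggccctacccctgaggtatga
Fas: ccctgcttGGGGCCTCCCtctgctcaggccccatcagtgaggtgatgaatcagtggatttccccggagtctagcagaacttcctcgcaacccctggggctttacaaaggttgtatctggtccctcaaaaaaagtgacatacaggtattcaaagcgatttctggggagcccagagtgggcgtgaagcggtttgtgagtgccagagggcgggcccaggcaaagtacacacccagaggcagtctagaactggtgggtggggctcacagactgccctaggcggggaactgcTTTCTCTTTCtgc
Tnfsf14: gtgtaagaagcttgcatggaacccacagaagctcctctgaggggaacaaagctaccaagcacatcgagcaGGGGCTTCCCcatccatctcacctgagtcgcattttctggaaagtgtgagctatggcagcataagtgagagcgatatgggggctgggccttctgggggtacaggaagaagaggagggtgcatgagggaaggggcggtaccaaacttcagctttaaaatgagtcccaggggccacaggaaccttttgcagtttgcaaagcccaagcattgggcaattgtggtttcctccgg
Traf7: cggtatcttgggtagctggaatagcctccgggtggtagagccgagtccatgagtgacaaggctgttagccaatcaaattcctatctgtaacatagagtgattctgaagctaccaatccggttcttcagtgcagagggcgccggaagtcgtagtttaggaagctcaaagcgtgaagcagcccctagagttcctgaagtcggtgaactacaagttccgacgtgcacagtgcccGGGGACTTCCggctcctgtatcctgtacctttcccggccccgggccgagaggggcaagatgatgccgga

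Among the ligands, 4 of 11 tested fell in GZM and 1 rose, with a median of -0.46 (6 lower and 0 higher with library totals). Of all 14298 genes tested, 21.7% were lower and 22.2% were higher. With library totals, 8513 of all genes were lower and 1315 higher. The ligands that fell are known as costimulators of lymphocytes. Tnfsf14 (LIGHT), which binds both Tnfrsf14 and Ltbr, stood at 0.696, 0.524 and 0.545 scaled FPKM in GZM 1, 2 and 3, against 2.48, 2.72 and 3.28 in GM 1, 2 and 3. It was 4.76-fold lower in GZM (log2 fold change -2.25 ± 0.38 SE, edgeR adjusted p = 0.00402). Its counts were 5, 4 and 5 in GZM 1, 2 and 3 and 37, 46 and 46 in GM 1, 2 and 3. Tnfsf14 thus passed the low-count filter through GM, and its fold size rests on few GZM reads. The groups did not come near each other, since the highest GZM library lay well under the lowest GM library.

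Tnfsf18, the ligand of GITR, a costimulatory receptor of T cells, had levels of 0.916, 1.13 and 0.906 scaled FPKM in the GZM libraries and 3.18, 4.44 and 5.14 in the GM libraries. Its log2 fold change was -2.11 ± 0.30 SE (edgeR adjusted p = 0.0026). Tnfsf18 was thus even within GZM and spread more widely within GM. Tnfsf8, the ligand of CD30 on activated lymphocytes, stood at 0.500, 0.0940 and 0.0979 scaled FPKM in GZM 1, 2 and 3 and at 1.44, 1.26 and 1.40 in GM 1, 2 and 3. It fell by 2.60 ± 0.60 SE on the log2 scale (adjusted p = 0.0108), and by 3.80 without GZM 1 (adjusted p = 0.00303). GZM 1 was the high library of its group, about 5.21 times the mean of GZM 2 and GZM 3. Tnfsf8 had 20, 4 and 5 counts in GZM 1, 2 and 3 and 120, 119 and 109 in GM 1, 2 and 3. It too passed the low-count filter through GM, and its fold size and this ratio rest on few GZM reads.

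Tnfsf9, which costimulates activated T cells through Tnfrsf9, reached 0.923, 0.506 and 0.542 scaled FPKM in GZM 1, 2 and 3, against 1.78, 1.73 and 2.60 in GM 1, 2 and 3. It fell by 1.63 ± 0.40 SE on the log2 scale (adjusted p = 0.0136). Tnfsf9 had 12, 7 and 9 counts in GZM 1, 2 and 3 and 48, 53 and 66 in GM 1, 2 and 3. It too passed the low-count filter through GM, and its fold size rests on few GZM reads. The call was lost without GZM 2 (adjusted p = 0.0661) and without GZM 3 (0.0594), where the log2 fold change was -1.47 and -1.50.

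Ltb, the lymphotoxin subunit that signals through Ltbr in lymphoid tissue, was the 1 ligand that rose. It reached 0.677, 2.78 and 1.79 scaled FPKM in GZM 1, 2 and 3, against 0.203, 0.395 and 0.607 in GM 1, 2 and 3. The lowest GZM library lay just above the highest GM library, and Ltb rested on 100 counts in all. The log2 fold change was 2.12 ± 0.61 SE (edgeR adjusted p = 0.025), and 1.31 when scaled to library totals, without a call (adjusted p = 0.0724). The call was also lost without GZM 2 (log2 fold change 1.64, adjusted p = 0.111), GZM 3 (2.11, 0.0662), GM 1 (1.80, 0.0838) or GM 2 (2.10, 0.0669), and without both GM 3 and GZM 1 the log2 fold change was 2.97. In the table's positions Ltb lies inside the spans given for the class I genes RT1-CE1, RT1-CE4 and RT1-CE7 on the same strand, so its reads are uncertain.

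The most abundant ligands per length did not pass. Tnfsf13 (APRIL), a survival factor of plasma cells, averaged 11.7 ± 1.17 scaled FPKM in GZM and 16.1 ± 3.65 in GM (SD over 3 libraries each; log2 fold change -0.46, adjusted p = 0.105). Tnfsf12 (TWEAK), whose receptor is induced in injured tissue, averaged 9.52 ± 2.46 and 12.7 ± 4.44 in GZM and GM (-0.42, adjusted p = 0.289). These neighbours lie 0.828 kb apart on chromosome 10, where reads of joined transcripts could be counted to either. Both were called lower with library totals (-1.28 and -1.22), and Tnfsf13 also without GM 2 (-0.60, adjusted p = 0.0396).

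Tnfsf10 (TRAIL), a death ligand of natural killer and other cells, stood at 8.43, 13.1 and 12.6 scaled FPKM in GZM 1, 2 and 3 and at 6.27, 4.98 and 9.84 in GM 1, 2 and 3. The log2 fold change of 0.70 ± 0.28 SE did not pass (edgeR adjusted p = 0.0785). Without GM 3, the highest GM library for Tnfsf10, it passed as higher (1.06, adjusted p = 0.00767), and with library totals it was -0.10. As a share of the summed ligand level, which no library scaling can alter, Tnfsf10 took 18.7%, 31.7% and 31.9% in GZM 1, 2 and 3 and 13.3%, 12.3% and 14.3% in GM 1, 2 and 3. Tnfsf13b (BAFF), the B-cell survival factor, did not pass at 3.29 ± 1.01 scaled FPKM in GZM and 2.58 ± 1.33 in GM (0.36, adjusted p = 0.516; -0.43 with library totals).

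Faslg and Cd40lg, displayed by cytotoxic and helper T cells, overlapped between the groups. Faslg had 3.15, 0.639 and 0.532 scaled FPKM in GZM 1, 2 and 3 and 0.802, 1.10 and 2.69 in GM 1, 2 and 3 (log2 fold change -0.10, adjusted p = 0.921). Its 95% interval ran from -1.84 to 1.63, so a change of either sign was not detectable with this spread. Cd40lg had 0.582, 0.110 and 0.122 scaled FPKM in GZM 1, 2 and 3 and 0.317, 0.181 and 0.637 in GM 1, 2 and 3 (-0.50, adjusted p = 0.606). In both genes GZM 1 and GM 3 were the high libraries. The sign of Faslg turned without GZM 2 (0.26), GZM 3 (0.31) or GM 3 (0.61), and that of Cd40lg without GM 3 (0.12).

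The filter on low counts left out 3 ligands and 4 receptors. Tnfsf15, the ligand of Tnfrsf25, had 1 count in the GZM libraries together and 27 in the GM libraries, a ratio of 0.0708 on the TMM scale (exact 95% interval 0.00173 to 0.43, counting error only). Without the low-count filter edgeR called it lower (adjusted p = 0.0331), as did DESeq2 (0.0419). Eda2r, a receptor for an ectodysplasin form, had 5 counts in GZM and 38 in GM (edgeR without the filter, adjusted p = 0.141), and Tnfsf4, the OX40 ligand, 6 and 38 (0.209). Without GZM 1, which held most of their GZM counts, both were called lower (adjusted p = 0.0361 for Eda2r and 0.0382 for Tnfsf4). In that fit both passed the low-count filter through GM, with 0 and 1 counts in GZM 2 and GZM 3. These calls thus rest on almost no GZM reads. Lta had 3 and 9 counts, a ratio of 0.637 (0.111 to 2.55). The B-cell receptors of BAFF and APRIL were also sparse, with 29 counts in GZM and 48 in GM for Tnfrsf13c, 8 and 18 for Tnfrsf13b, and 11 and 16 for Tnfrsf17. For Lta and these receptors the ratio intervals included 1, so no difference was detectable at this depth.

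**Figure D2:**
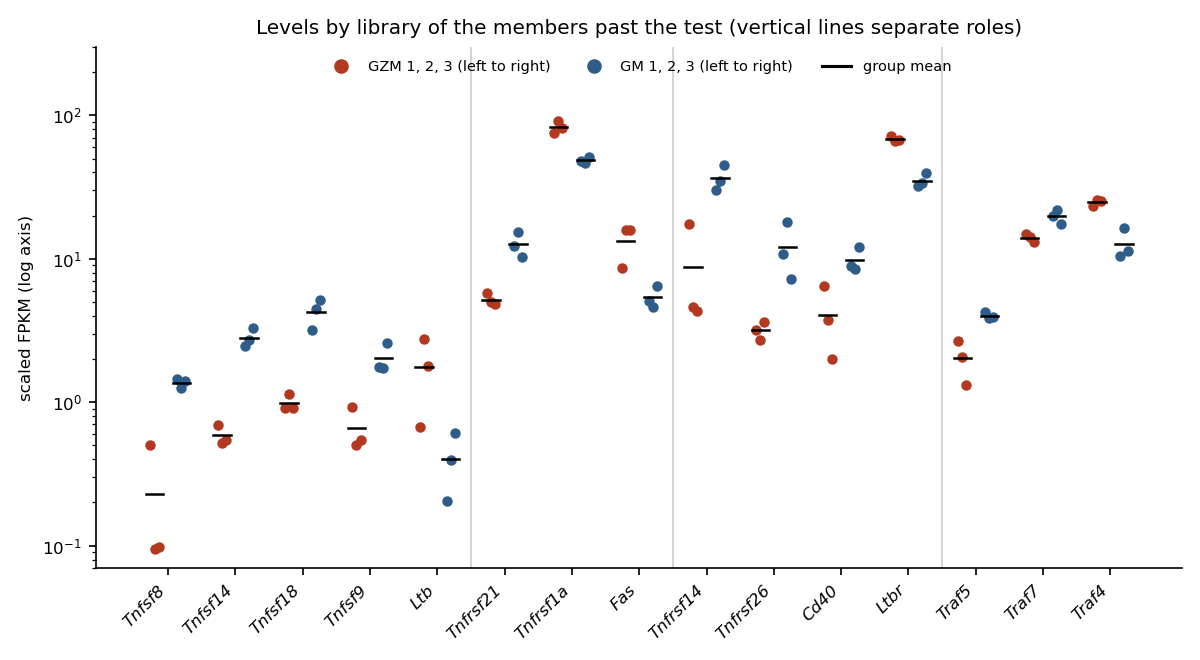
Scaled FPKM (log axis) of the 15 members past the test in each library, with GZM (red) left of GM (blue), libraries 1 to 3 from left to right and black bars for group means. GZM 1 stands above GZM 2 and GZM 3 for Tnfsf8 and Tnfrsf14 and below them for Fas and Ltb.

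Among the 18 receptors tested, 4 fell and 3 rose, with a median of -0.19 (10 fell and none rose with library totals). Of all 14298 genes tested, 21.7% were lower and 22.2% were higher. With library totals, 8513 of all genes were lower and 1315 higher. The death-domain receptors diverged. Fas, the receptor that hepatocytes and lymphocytes use for contact-induced death, stood at 8.60, 15.8 and 15.8 scaled FPKM in GZM 1, 2 and 3, against 5.12, 4.63 and 6.42 in GM 1, 2 and 3. It was 2.49-fold higher in GZM (log2 fold change 1.32 ± 0.27 SE, edgeR adjusted p = 0.00699), but its change was 0.50 when scaled to library totals and was not called (adjusted p = 0.123). All GZM libraries lay above all GM libraries, GZM 1 by the least.

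Tnfrsf1a, the main TNF receptor of non-lymphoid cells, was the most abundant member per length. Its levels were 75.2, 91.8 and 81.9 scaled FPKM in GZM 1, 2 and 3 and 48.4, 46.7 and 51.6 in GM 1, 2 and 3. The log2 fold change was 0.76 ± 0.16 SE (edgeR adjusted p = 0.00778), but -0.07 with library totals (adjusted p = 0.719). Its direction thus rests on the scaling. Tnfrsf21 (DR6), a receptor also known for restraining lymphocyte responses, went the other way, at 5.76, 4.96 and 4.82 scaled FPKM in GZM 1, 2 and 3 against 12.4, 15.4 and 10.3 in GM 1, 2 and 3. It was 2.46-fold lower (-1.30 ± 0.19 SE, adjusted p = 0.0027), and lower in each of 14 other settings run. Tnfrsf25 (DR3), found on T cells, did not pass although its groups did not overlap, at 3.82, 2.90 and 2.46 scaled FPKM in GZM 1, 2 and 3 and 1.22, 1.88 and 2.34 in GM 1, 2 and 3 (0.75, adjusted p = 0.111; -0.06 with library totals).

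Receptors without a death domain were lower in 3 of 13 cases and higher in 1, beside 21.7% and 22.2% of all genes tested. Tnfrsf14 (HVEM), which lymphocytes use for both activating and inhibiting contacts, had 17.6, 4.59 and 4.32 scaled FPKM in GZM 1, 2 and 3, against 30.1, 34.9 and 44.9 in GM 1, 2 and 3. It was 4.17-fold lower (log2 fold change -2.06 ± 0.53 SE, edgeR adjusted p = 0.0161). Without GZM 1, the high GZM library, Tnfrsf14 fell by 3.03 on the log2 scale, and without both GM 3 and GZM 1 by 2.79. Without GZM 2 the call was lost (-1.74, adjusted p = 0.0558).

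Tnfrsf26, a receptor known from rodents, stood at 3.21, 2.70 and 3.64 scaled FPKM in GZM 1, 2 and 3 and at 10.8, 18.1 and 7.22 in GM 1, 2 and 3. The log2 fold change was -1.92 ± 0.34 SE (edgeR adjusted p = 0.00465), and it was lower in each of 14 other settings run. Here GM 2 was the high library and GM 3 the low one, as for the dividing-cell markers, whose summed level was 256.2, 353.0 and 128.6 scaled FPKM in GM 1, 2 and 3 and 48.9 to 56.7 in GZM. Of those markers 8 of 8 fell, beside 21.7% of all genes tested, and none was at 0. Their part in the result was not tested.

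Cd40, the receptor through which T cells activate B cells, macrophages and dendritic cells, had 6.48, 3.76 and 1.99 scaled FPKM in GZM 1, 2 and 3 and 8.96, 8.56 and 12.1 in GM 1, 2 and 3. It fell by 1.28 ± 0.40 SE on the log2 scale (edgeR adjusted p = 0.0344). The groups did not overlap, but the call was kept only without GZM 1 among the libraries left out singly. Without GZM 2 the log2 fold change was -1.22 (adjusted p = 0.111), without GZM 3 -0.93 (0.0768), without GM 1 -1.35 (0.0707), without GM 2 -1.38 (0.0501) and without GM 3 -1.08 (0.067).

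Ltbr, the lymphotoxin beta receptor of stromal, epithelial and myeloid cells, was even within each group. Its levels were 72.2, 66.1 and 67.9 scaled FPKM in GZM 1, 2 and 3 and 32.1, 33.8 and 39.5 in GM 1, 2 and 3. It was 1.96-fold higher (log2 fold change 0.97 ± 0.16 SE, edgeR adjusted p = 0.00343), but 0.14 with library totals (adjusted p = 0.446). Tnfrsf1b, the TNF receptor of leukocytes and endothelium, was also abundant and did not pass, at 26.3 ± 1.01 scaled FPKM in GZM and 22.8 ± 3.42 in GM (0.21, 95% interval -0.15 to 0.57, adjusted p = 0.308). With library totals Tnfrsf1b was called lower (-0.61, adjusted p = 0.00835), so its direction too rests on the scaling.

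Tnfrsf12a, the TWEAK receptor that injured epithelium and stroma induce, varied more within the groups than between them. It stood at 13.2, 57.8 and 49.7 scaled FPKM in GZM 1, 2 and 3 and at 33.8, 69.8 and 21.8 in GM 1, 2 and 3 (log2 fold change -0.06, 95% interval -1.37 to 1.25, adjusted p = 0.945). GZM 1 was the lowest of all 6 libraries, and the sign turned without it (0.37) or without GM 2 (0.54). Tnfrsf11b (osteoprotegerin), a secreted decoy that binds the RANK ligand and TRAIL, averaged 8.38 ± 1.56 and 10.5 ± 4.03 scaled FPKM in GZM and GM (-0.32, adjusted p = 0.418).

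The T-cell costimulators Tnfrsf4, Tnfrsf9, Tnfrsf18 and Cd27 did not pass, with log2 fold changes of -0.61, -0.97, -0.98 and -1.46. With library totals all 4 were called lower (-1.42, -1.80, -1.80 and -2.28, adjusted p from 0.00214 to 0.0172). Tnfrsf9 lay nearest the threshold, at 2.46, 2.09 and 1.15 scaled FPKM in GZM 1, 2 and 3 and 3.13, 3.61 and 4.39 in GM 1, 2 and 3 (edgeR adjusted p = 0.0511), and was called lower without GZM 1 (-1.19, adjusted p = 0.0479) and by DESeq2 (-0.96, adjusted p = 0.0289). Tnfrsf18 (GITR) also had groups that did not overlap, at 0.944 ± 0.371 and 1.84 ± 0.317 scaled FPKM in GZM and GM (adjusted p = 0.0876), and Tnfrsf4 (OX40) overlapped, at 2.60 ± 0.750 and 3.96 ± 1.40 (adjusted p = 0.219). Tnfrsf8 (CD30) averaged 0.434 ± 0.0991 scaled FPKM in GZM and 0.443 ± 0.0877 in GM (-0.03, adjusted p = 0.955), beside its ligand Tnfsf8, which fell. Tnfrsf11a (RANK), the receptor of the RANK ligand, was at 3.61 ± 1.16 and 2.21 ± 0.552 in GZM and GM (0.71, adjusted p = 0.106; -0.13 with library totals). Tnfrsf19, known from epithelial and neural progenitors, had 65 counts in all (0.67, adjusted p = 0.554), and its sign turned without GZM 1 (-1.14).

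Setting each ligand beside its receptor, 10 of 22 listed pairs had both genes tested. In 1 pair both fell (Tnfsf14 and Tnfrsf14) and in 1 both rose on the TMM scale (Ltb and Ltbr). In 3 pairs the ligand fell and the receptor did not pass (Tnfsf8 and Tnfrsf8, Tnfsf9 and Tnfrsf9, Tnfsf18 and Tnfrsf18). In 1 pair they were opposite, since Tnfsf14 fell while its other receptor Ltbr rose on the TMM scale (0.14 with library totals). Fas rose beside a ligand that did not pass, and Cd40 fell beside one that did not. Whether a ligand and its receptor changed by different amounts was not tested.

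**Figure D3:**
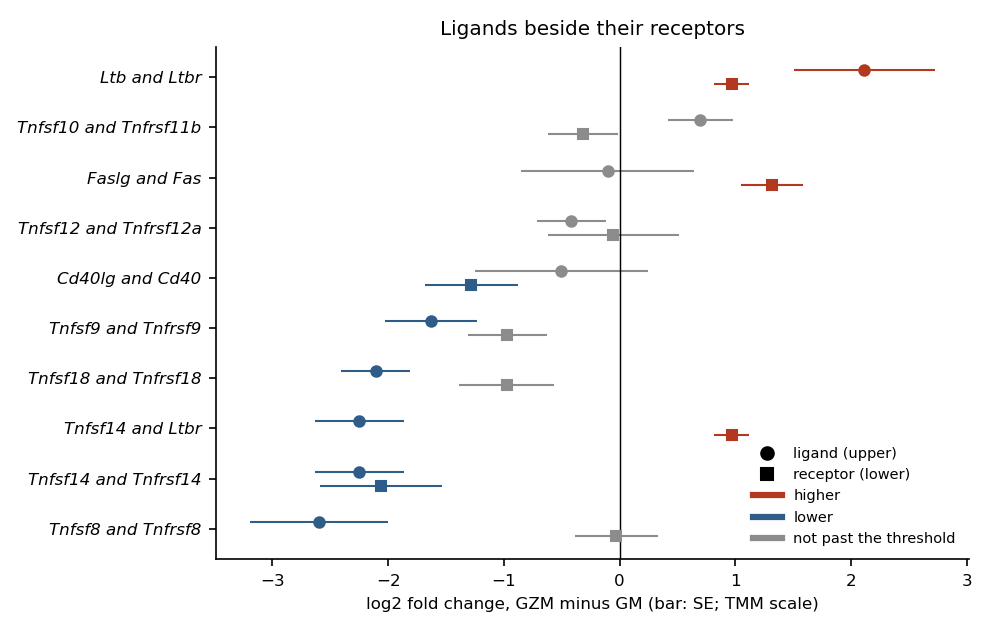
Log2 fold change (x axis, GZM minus GM, bars of 1 SE, TMM scale) of the ligand (circle) and receptor (square) of the 10 pairs with both genes tested. Tnfsf14 and Tnfrsf14 lie together below -2, while Ltbr, the other receptor of Tnfsf14, lies at 0.97.

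The makeup of the receptors was compared as each gene's share of their summed level per length, which no library scaling can alter. The summed level was 277.1 ± 21.9 scaled FPKM in GZM and 256.3 ± 22.5 in GM (SD over 3 libraries each). Tnfrsf1a made up 29.9% ± 0.641 of it in GZM and 19.2% ± 2.10 in GM, and Ltbr 25.0% ± 3.07 and 13.8% ± 1.56. Tnfrsf14, by contrast, made up 3.32% ± 3.07 in GZM, where GZM 1 alone stood at 6.87%, and 14.3% ± 2.68 in GM. The share of Fas was 4.79% ± 1.27 in GZM and 2.12% ± 0.415 in GM, and that of Tnfrsf21 1.89% ± 0.318 and 4.96% ± 0.844. For each of these genes the shares of the GZM libraries did not overlap those of the GM libraries. Tnfrsf1b took 9.52% ± 0.405 in GZM and 8.94% ± 1.48 in GM, with overlap, and Tnfrsf12a ranged from 5.16% to 19.3% in GZM and from 8.45% to 25.1% in GM. A rise in one share lowers the others, so a share shows unequal change only.

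**Figure D4:**
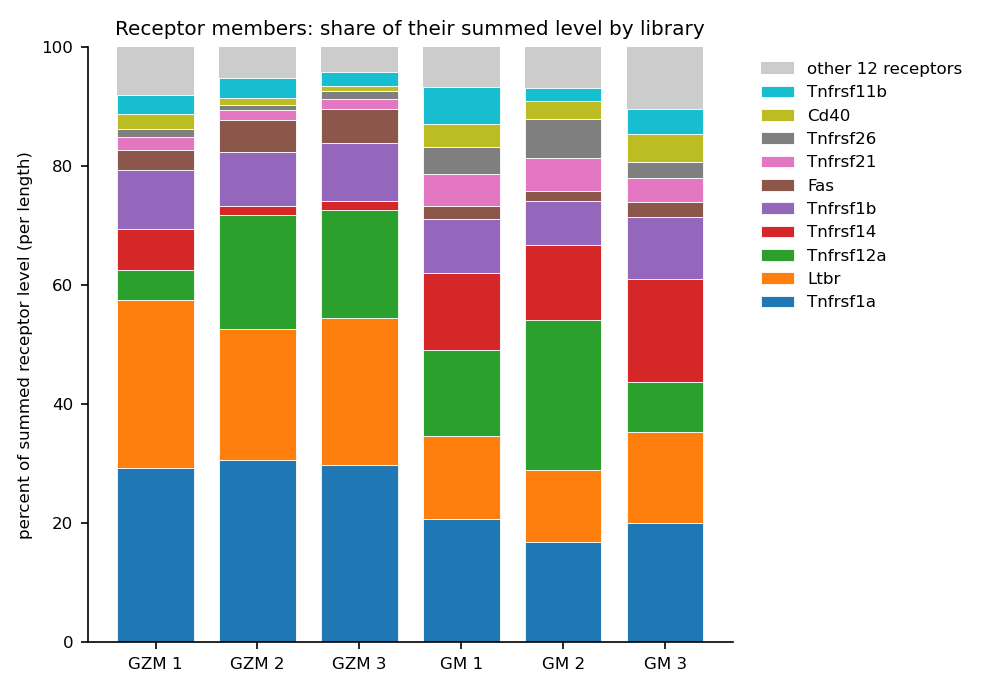
Share (percent, y axis) of the summed receptor level per length that each of the 10 most abundant receptors took in each library, with the other 12 in light grey at the top. Tnfrsf1a and Ltbr together fill over 50% of each GZM bar, while Tnfrsf14 is a broad band in the GM bars and a thin one in GZM 2 and GZM 3.

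The TRAF adaptors, which carry the signal from receptors to NF-kB and kinases, had 2 of 7 lower and 1 higher (6 and 0 with library totals). Among all genes tested 21.7% were lower and 22.2% higher, so the adaptors' share of calls was near that of all genes. Traf4, an adaptor of epithelial cells, stood at 23.3, 25.6 and 25.2 scaled FPKM in GZM 1, 2 and 3 and at 10.5, 16.3 and 11.4 in GM 1, 2 and 3 (log2 fold change 0.96 ± 0.19 SE, edgeR adjusted p = 0.00672), but its change was 0.11 with library totals (adjusted p = 0.68). As a share of the summed adaptor level Traf4 took 36.5% ± 2.15 in GZM and 20.1% ± 2.18 in GM. Its libraries did not overlap on either measure.

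Traf7 and Traf5 fell. Traf7, which also binds a stress kinase upstream of JNK and p38, had 14.8, 14.1 and 13.1 scaled FPKM in GZM 1, 2 and 3 and 19.9, 21.8 and 17.5 in GM 1, 2 and 3 (-0.50 ± 0.14 SE, edgeR adjusted p = 0.0262). The call of Traf7 was lost without GZM 1 (-0.53, adjusted p = 0.0521), GZM 2 (-0.49, 0.102), GZM 3 (-0.44, 0.114) or GM 1 (-0.49, 0.075). Traf5, an adaptor of lymphocyte costimulators, was at 2.69, 2.08 and 1.31 scaled FPKM in GZM 1, 2 and 3 and 4.23, 3.86 and 3.96 in GM 1, 2 and 3 (-0.99 ± 0.31 SE, adjusted p = 0.0355). GM was tight for Traf5 and GZM was spread. Its call was kept only without GZM 1 among single libraries, being lost without GZM 2 (-1.0, adjusted p = 0.105), GZM 3 (-0.74, 0.113), GM 1 (-0.96, 0.0959), GM 2 (-1.02, 0.0548) or GM 3 (-0.97, 0.0531).

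The general adaptors Traf2, Traf3 and Traf6 did not pass, at log2 fold changes of 0.29, -0.10 and -0.15 (adjusted p from 0.191 to 0.734). Traf2 was at 15.4 ± 0.733 scaled FPKM in GZM and 12.7 ± 1.96 in GM. Scaled to library totals, Traf2 (-0.55, adjusted p = 0.0318), Traf3 (-0.94, 0.0139), Traf6 (-1.0, 0.043) and Traf1 (-1.24, 0.0176) were called lower. Traf1, itself an NF-kB target, had 7.42, 3.00 and 3.65 scaled FPKM in GZM 1, 2 and 3 and 4.55, 7.45 and 6.63 in GM 1, 2 and 3 (-0.41, adjusted p = 0.394), with GZM 1 just under the highest GM library.

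GZM 1 stood apart from GZM 2 and GZM 3 for some members, a description made after the values were seen. Cd27 in GZM 1 was 5.92 times the mean of GZM 2 and GZM 3, Faslg 5.38 times, Tnfsf8 5.21 times, Cd40lg 5.04 times and Tnfrsf14 3.96 times. For Tnfsf8 and Cd40lg, GZM 2 and GZM 3 held only 3 to 5 counts each. The sparse Tnfsf4, Eda2r and Tnfrsf19 had ratios of 12.8, 10.2 and 9.48, and Tnfrsf13c of 4.41. Other members known from T cells were nearer level, at ratios of 1.37 for Tnfrsf18, 1.38 for Tnfrsf8, 1.43 for Tnfrsf25 and 1.51 for Tnfrsf4. The ratio of Tnfsf18, the ligand of Tnfrsf18, was 0.898. The 10 T-cell markers summed to 195.5, 59.4 and 68.5 scaled FPKM in GZM 1, 2 and 3 and to 191.8 to 363.2 in GM, and the natural killer and cytotoxic markers to 62.8 in GZM 1, at most 17.6 in the other GZM libraries and 65.9 to 134.9 in GM. The T-cell sum of GZM 1 thus lay within the range of GM, at 3.06 times the mean of the other GZM libraries. Of the T-cell markers 2 of 10 fell, of the cytotoxic markers 1 of 7 tested fell, and none was at 0 in all libraries. Among all genes tested 21.7% were lower. With library totals 6 T-cell and 6 cytotoxic markers were called lower, beside 8513 of all 14298 genes tested. Cd27, a receptor of T and memory B cells, had 4.07, 0.778 and 0.598 scaled FPKM in GZM 1, 2 and 3 and 2.72, 5.81 and 6.26 in GM 1, 2 and 3 (edgeR adjusted p = 0.127). Without GZM 1 it was called lower (log2 fold change -2.83, adjusted p = 0.00899). The part of the T-cell and cytotoxic markers in these results was not tested.

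Other members ran the opposite way in GZM 1. Tnfrsf12a was 4.06 times lower in GZM 1 than the mean of the other GZM libraries, Ltb 3.38 times and Fas 1.84 times. Tnfsf18, Tnfrsf26, Ltbr, Tnfrsf1a and Traf4, by contrast, lay within 1.16 times of that mean. B-cell markers summed to 10.0 to 15.9 scaled FPKM in GZM and 22.2 to 45.6 in GM, a sum led in GM by Fcrla, a B-cell Fc receptor-like gene (3.41 in GZM and 25.8 in GM, edgeR adjusted p = 0.00319). The other 6 of 7 tested B-cell markers had positive log2 fold changes, of which Blk passed (1.93, adjusted p = 0.018), and the median over all 7 was 0.47 (-0.29 with library totals). Macrophage and Kupffer cell markers, of which 2 of 10 rose and 5 fell, summed to 1379 to 2024 in GZM and 2701 to 4775 in GM. Dendritic-cell markers (1 of 8 fell) summed to 23.7 to 43.7 and 33.2 to 55.8 in GZM and GM, and no marker of these lists was at 0 in all libraries. Hepatocyte markers, of which 9 of 10 rose, and endothelial markers (3 of 7 tested rose, 1 fell; 82.3 to 95.4 in GZM and 37.1 to 82.0 in GM) were on the higher side in GZM on the TMM scale, while on library totals 7 hepatocyte and no endothelial, B-cell or dendritic-cell markers were called higher. Neutrophil markers (1 of 7 tested rose, 1 fell) summed to 94.5 to 192.3 in GZM, where Ltf was at 0, and 43.5 to 121.7 in GM. Fibroblast markers (1 of 7 tested fell) summed to 412.8 to 967.0 and ductal markers (1 of 6 rose) to 72.7 to 122.9 in GZM, against 800.1 to 2106 and 78.9 to 178.1 in GM. Beside these marker counts, 21.7% of all genes tested were lower and 22.2% were higher on the TMM scale. The part of these cell types in the members' changes was not tested.

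**Figure D5:**
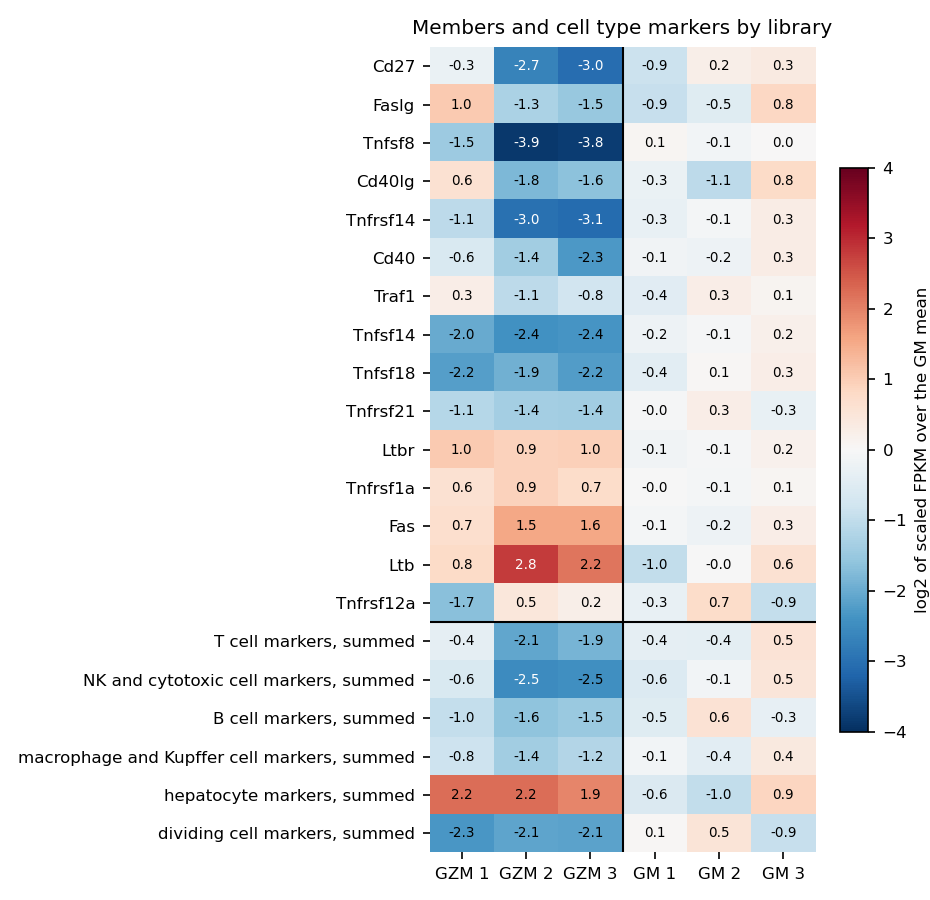
Log2 of scaled FPKM over the GM mean, by library, for 15 members chosen after their values were seen and for 6 summed marker lists. GZM 1 is nearer to 0 than GZM 2 and GZM 3 for Cd27, Tnfsf8 and Tnfrsf14 and for the T-cell and cytotoxic markers, while Ltbr and Tnfrsf1a are even across GZM.

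Genes that act after the receptors were read from 7 lists. Beside the counts of each list, 21.7% of all 14298 genes tested were lower and 22.2% were higher. With library totals, 8513 of all genes were lower and 1315 higher. The list counts here and in the paragraphs that follow are to be read against these. Of 19 tested death adaptors, caspases and inhibitors, 5 fell and 2 rose (median -0.27; 16 fell and none rose with library totals). Ripk3, the kinase that starts necroptosis, fell by 1.56 (0.15 SE, edgeR adjusted p = 0.00192) and the pore-forming Bak1 by 1.31 (adjusted p = 0.00309). Of 16 kinases 3 rose and 2 fell (1 and 10 with library totals). Mapk9, which encodes JNK2, was higher by 2.02 (adjusted p = 0.00285), and still called at 1.18 on library totals. Chuk, the IKK-alpha subunit, was higher by 0.68 (adjusted p = 0.00798) on the TMM scale and stood at -0.17 on library totals.

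Among 10 NF-kB subunits and inhibitors 3 rose and 1 fell (0 and 5 with library totals). Bcl3, an atypical inhibitor that can also activate transcription, rose by 1.14 (edgeR adjusted p = 0.0032) but reached only 0.32 with library totals. The 1 gene that fell was the subunit Rel, by 1.05 (-1.87 with library totals). The call of Rel was lost without GZM 2 (edgeR adjusted p = 0.0777) or GZM 3 (0.0588). The other subunits Rela, Relb, Nfkb1 and Nfkb2 did not pass, at 0.32, 0.27, -0.08 and 0.03. Of 12 ubiquitin enzymes of the receptor complex 1 rose and 1 fell (0 and 9 with library totals): the deubiquitinase Cyld fell by 0.87 (adjusted p = 0.00619), and Otulin, which removes linear ubiquitin, rose by 0.79 (adjusted p = 0.00543), turning to -0.04 with library totals.

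NF-kB target genes did not move one way, with 7 of 21 lower and 3 higher (11 and 2 with library totals). The neutrophil chemokine Cxcl1 rose by 2.53 (edgeR adjusted p = 0.00318) and the iron-binding protein gene Lcn2 by 3.03 (adjusted p = 0.00597; 3.74 without GM 3). The monocyte chemokine Ccl2 fell by 2.52 (adjusted p = 0.00218), the survival gene Bcl2a1 by 1.40 (adjusted p = 0.00475) and Irf1 by 1.28 (adjusted p = 0.00247). These 5 targets kept their direction and call with library totals. Among 8 genes of ligand and receptor shedding, Adam17, the protease that releases TNF and its receptors, fell by 0.94 (adjusted p = 0.00344), and the intramembrane protease Sppl2a rose by 0.70 (adjusted p = 0.00861), turning to -0.13 with library totals. In all 2 of the 8 fell and 1 rose (7 and 0 with library totals). Of 5 tested relatives outside the symbol rule (Eda, Edar, Ngfr, Relt and Rell1), 3 fell and 1 rose (4 and 0 with library totals), and each of these calls was lost without at least 1 library. The pathway genes given with an adjusted p below 0.05 in these paragraphs are among the 15, of 29 chosen by smallest p, that kept their call without each library.

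Several members lie side by side on their chromosomes. Ltbr and Tnfrsf1a, both higher on the TMM scale, are 35.7 kb apart on chromosome 4 in the table's positions, with Cd27, which did not pass, 72.8 kb from Ltbr. Tnfsf14 and Tnfsf9, both lower, flank Cd70 on chromosome 9, at 77.4 and 64.2 kb from it. Tnfsf8 on chromosome 5 (79664765 to 79691258, minus strand), lower, lies 94.7 kb from the sparse Tnfsf15. Tnfsf18 on chromosome 13, lower, lies 85.0 kb from Tnfsf4, which was too sparse to test. Tnfrsf14 is on chromosome 5 (172328262 to 172335892, minus strand) and Fas on chromosome 1 (252589785 to 252624790, plus strand). The submitters' processing notes name the build mRatBN7.2, but positions on chromosome 1 reach 282724300, beyond that build, so the build of these positions was not settled.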

How the data were processed

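RNA was extracted from 6 rat liver samples with TRIzol, poly(A)-selected and made into strand-specific libraries, per the labels' protocols. The aligner, counter and strand setting were not named in any source used, so overlapping genes are uncertain. Per the file headers the deposited table gives a count and an FPKM value per gene and sample. The deposited counts are whole numbers. The deposited FPKM values are counts divided by the deposited exon length and the sample's total count: all 195738 recomputed within 0.01. The headers spell GZM as ZGM, and these columns were matched by letters and number.

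The test was edgeR 4.0.16 (R 4.3.3, quasi-likelihood, TMM, default low-count filter, 14298 genes), GZM against GM with no covariate. Its p-values were adjusted by Benjamini-Hochberg at 0.05 over all genes. The test was also run on simulated data, where it recovered most of the larger changes but few of the smaller ones. Far fewer genes were changed in the simulation than were called here, so its recovery does not carry over to these data. A member that did not pass may still have changed. SE is the log2 fold change over the root of the quasi-F value. Alternatives were other scalings, DESeq2 1.42.0, limma 3.58.1 on log2(FPKM + 0.1) or log2(FPKM + 1), no filter, a replicate block and left-out libraries. Replicate pairs differed beyond sampling noise (chi-square per degree of freedom from 10.5 up), so each library counted as 1 sample.

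All members were reported, with values by library for those past the test and for the most abundant others. From 7 pathway lists (94 genes) up to 3 genes higher and 3 lower of smallest p were eligible to be named, and values outside this rule were named after being seen. The result of 1 eligible gene is not reported here. Cell types were read from 11 marker lists (92 genes). Members and lists were chosen with earlier results of these data known. Figures were drawn with matplotlib 3.10.9.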

Additional observations from a re-analysis of the deposited data

How the results depend on the processing

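Of 504 values of single members under 14 alternative settings, 389 kept their direction and their side of the threshold. A further 35 lost a call and 40 gained one with the same sign, and 40 changed sign. Values that changed sign were counted only there, also where a call was lost (Tnfrsf1a with library totals) or gained (Tnfrsf1b). Tnfsf8, Tnfsf14, Tnfsf18, Tnfrsf21 and Tnfrsf26 were called lower in every setting run.

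Most other differences came with library totals, which shift the median of all genes. The number of genes changed was 6285, against 9828 in edgeR with library totals, 9835 in limma on log2(FPKM + 0.1) and 9753 on log2(FPKM + 1). Members lower numbered 10, against 22 in each of these 3 settings, and members higher 5, against 0. The members' median of -0.36 became -1.19, -1.08 and -0.96. Relative to the median of all genes it was -0.27, -0.27, -0.20 and -0.29.

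Under these 3 settings in the same order the sign turned for Tnfrsf1a (-0.072, -0.073 and -0.072), Tnfrsf1b (-0.61, -0.61 and -0.59), Tnfrsf11a (-0.13, -0.14 and -0.10), Tnfrsf19 (-0.16, -0.39 and -0.041), Tnfrsf25 (-0.064, -0.046 and -0.036), Tnfsf10 (-0.10, -0.10 and -0.092), Tnfsf13b (-0.43, -0.38 and -0.29) and Traf2 (-0.55, -0.53 and -0.50). It also turned for the pathway genes Chuk (-0.17, -0.15 and -0.14), Ikbkb (-0.20, -0.21 and -0.20), Nfkbia (-0.24, -0.24 and -0.23), Otulin (-0.040, -0.043 and -0.041) and Sppl2a (-0.13, -0.13 and -0.12).

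Leaving out 1 library at a time gave 3777 to 7024 genes changed, 5 to 13 members lower, 4 to 6 higher and a median from -0.73 (without GZM 1) to -0.24. Among members without a call, the sign turned within these fits for Cd40lg (-1.66 without GZM 1 to 0.12 without GM 3), Faslg (-1.37 without GZM 1 to 0.61 without GM 3), Tnfrsf12a (-0.40 without GZM 2 to 0.54 without GM 2), Tnfrsf19 (-1.14 without GZM 1 to 1.21 without GZM 2), Tnfrsf8 (-0.18 without GZM 1 to 0.18 without GM 3), Traf3 (-0.29 without GZM 3 to 0.091 without GZM 1) and Traf6 (-0.41 without GZM 3 to 0.040 without GM 2). Without both GM 3 and GZM 1, 11 members were lower and 8 higher, and signs turned for Tnfrsf12a (0.13), Tnfrsf19 (-1.13), Tnfrsf8 (0.058) and Traf3 (0.084). The cause of these changes was not tested.

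The labels give GZM and GM the same replicate numbers. Same-numbered samples did not deviate together (correlations of their deviations -0.14, 0.16 and -0.27), so the numbers were not taken to pair them. With the replicate block 5166 genes changed, 8 members were lower and 5 higher, Traf5 (adjusted p = 0.0532) and Traf7 (0.0607) no longer passing, and the median was -0.36. Not every sample correlated best with its own number. The 7 members left out by the low-count filter had 12 to 77 counts in all. Of these, Tnfsf15 was called lower without the filter (adjusted p = 0.0331), and Eda2r and Tnfsf4 without GZM 1 (0.0361 and 0.0382). These calls rest on GM reads, with almost none in the GZM libraries used.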
